A study of Mus musculus with 10 samples.

Results

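MHC class I presentation genes were followed in preadipocytes, the precursors of fat cells, under bisphenol S (BPS). The 10 genes were taken by name: the light chain B2m, the heavy chains H2-K1 and H2-D1, the peptide loading genes Tap1, Tap2 and Tapbp, the immunoproteasome subunits Psmb8, Psmb9 and Psmb10, and the regulator Nlrc5. All 10 were found among 32903 genes assembled from the transcript table, through 25 transcripts, and all 10 passed the filter on low counts. The cells came from inguinal subcutaneous fat (iSAT) of male mice of the genotype WT C57 BL6. In 5 libraries the cells had received the vehicle DMSO, and in 5 libraries BPS at 2.5 µM dissolved in DMSO, so both groups were exposed to DMSO. The study's title asks about reactive oxygen species in the fat-promoting action of bisphenol A and its structural analogues. The length of exposure, and whether replicates came from separate animals or dishes, are not given in the sources used here, so p-values measure the spread between these libraries, which may be technical.

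MHC class I molecules are heavy chains paired with beta-2 microglobulin that show short peptides from inside the cell to CD8 T cells and natural killer cells. The peptides are cut by the proteasome, whose catalytic subunits can be exchanged for those of the immunoproteasome, are pumped into the endoplasmic reticulum by the TAP transporter and are loaded with the help of tapasin. Most of these genes respond to interferons, through IRF and STAT proteins, and Nlrc5 acts with the RFX complex, CREB family proteins and NF-Y at a promoter module called SXY, made of S, X1, X2 and Y boxes.

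Promoters are shown for the genes on which the comparison turned: Tap1, the member called lower in the BPS libraries, and the 3 surface chain genes, which did not pass the test. The sequences are the 250 bases before the gene start in RefSeq, build GRCm38.p6, where 8 of the 10 members had an entry and Tap2 and Nlrc5 did not. For H2-K1 the first of its listed starts was used. Positions are those of this reference, since the build behind the deposited counts is not given in the sources used here. Capitals mark matches on either strand to the X2 box core (TGACG), the Y box core (ATTGG), a kappa-B site (GGGATTCCC) and cores of the interferon-stimulated response element (ISRE) in a short form (GAANNGAAA) and a form with 1 more base before the gap.
B2m, chr2:122147437-122147686, plus strand: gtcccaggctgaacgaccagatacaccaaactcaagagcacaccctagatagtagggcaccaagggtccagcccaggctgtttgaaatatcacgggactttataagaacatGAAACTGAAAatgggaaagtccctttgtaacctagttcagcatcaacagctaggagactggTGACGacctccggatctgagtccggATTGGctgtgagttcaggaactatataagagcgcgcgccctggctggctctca
H2-K1, chr17:34000348-34000597, minus strand: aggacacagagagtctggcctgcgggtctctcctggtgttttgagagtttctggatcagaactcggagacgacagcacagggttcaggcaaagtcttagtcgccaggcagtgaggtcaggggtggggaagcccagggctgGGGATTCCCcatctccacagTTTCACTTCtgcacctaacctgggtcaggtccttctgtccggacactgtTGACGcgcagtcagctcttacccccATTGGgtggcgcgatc
H2-D1, chr17:35262844-35263093, plus strand: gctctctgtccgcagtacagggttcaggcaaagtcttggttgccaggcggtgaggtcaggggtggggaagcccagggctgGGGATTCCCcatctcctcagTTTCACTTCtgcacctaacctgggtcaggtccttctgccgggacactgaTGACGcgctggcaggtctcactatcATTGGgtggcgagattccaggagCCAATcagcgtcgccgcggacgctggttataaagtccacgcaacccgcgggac
Tap1, chr17:34187306-34187555, plus strand: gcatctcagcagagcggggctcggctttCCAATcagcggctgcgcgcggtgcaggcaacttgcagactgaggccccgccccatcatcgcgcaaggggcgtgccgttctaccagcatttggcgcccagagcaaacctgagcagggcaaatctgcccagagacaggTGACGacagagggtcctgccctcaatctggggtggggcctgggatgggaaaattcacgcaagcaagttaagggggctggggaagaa

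The X2 core followed by the Y core, with 10 to 30 bases between them on the same strand, was present in B2m, H2-K1 and H2-D1 and in none of the other 5 members with a sequence. Of all 27025 promoters searched in the same way, 0.692% held this arrangement. The kappa-B letters occurred in H2-K1 and H2-D1 and in 0.311% of all promoters. The short ISRE core occurred in the same pair and in 6.34% of all promoters, and the longer form in B2m and in 3.04%. H2-K1 and H2-D1 matched at 166 of 190 aligned bases (87.4%). Tap1 held 1 X2 core and 1 Y core outside that spacing, and no ISRE core or kappa-B site of these spellings. The X2 core alone was found in 5 of the 8 members and 17.9% of all promoters, and the Y core alone in 6 of the 8 and 34.5%. The interferon-gamma activated sequence core TTCNNNGAA was found in Psmb8 and in 7.18% of all promoters. A match is a run of letters and not a shown binding site. Tap1 and Psmb9 lie head to head with 225 bases between their starts, so both windows hold those same 225 bases. In the RefSeq order of protein-coding genes on chromosome 17, Psmb9, Tap1, Psmb8 and Tap2 follow one another, between the class II genes H2-DMb1 and H2-Ob.

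Depth was similar in all libraries, with 37920689 to 42717227 estimated counts each. Preadipocyte markers were present, and all 13 listed were tested. They summed to 37100 to 40200 CPM (counts scaled to a common library total) in DMSO and 35400 to 39900 CPM in BPS. Most of this sum came from Col1a1 and Col3a1, with means of 21800 and 12700 CPM in DMSO. The lowest were Dpp4 and Pi16, at 2.45 and 2.02 CPM in DMSO. Among the 13 markers Cd34, a progenitor surface marker, was 21.3% higher under BPS (adjusted p = 0.000428 by edgeR). Thy1, a stromal surface marker, was 14.1% higher (adjusted p = 0.00129 by edgeR), and both were without overlap. These 2 were the only markers of the 13 called, against 3.06% of all genes called higher. Estimates were below 0 for 6 of the 13 and above 0 for 7, with a median log2 fold change of 0.001. Pdgfra differed by -4.48% (adjusted p = 0.0777 by edgeR) and Fap by -6.86% (adjusted p = 0.156 by edgeR), and neither was called. Library codes in the labels place all DMSO libraries before all BPS libraries, so a batch following that order and the treatment cannot be told apart. In bulk RNA a lower share of cells of a kind and less RNA per cell cannot be told apart either.

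Between the BPS and DMSO libraries, 1 of the 10 class I presentation genes was called. Tap1, a subunit of the peptide transporter, was 11.3% lower in BPS (adjusted p = 0.0458 by edgeR), and none of the 10 was called higher. The Tap1 call held in 10 of the 23 alternative fits described below. Psmb8 and the other immunoproteasome subunits had lower means without passing the test, and the surface chains B2m, H2-K1 and H2-D1 differed from DMSO by -0.981%, 0.483% and -1.97%, none of which passed the test. Over all 14597 genes tested, 4.88% had an adjusted p under 0.05 in edgeR's quasi-likelihood fit, 1.82% lower and 3.06% higher. With 10 members, 1 call is near that background and is not a result about the group. The estimates were below 0 for 8 of the 10 members and for 49.8% of all genes, with a median log2 fold change of -0.04 in the members and 0 over all genes. The DMSO and BPS values did not overlap for Tap1 alone among the members, against 6.9% of all genes, 2.71% with BPS lower.

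**Figure D1:**
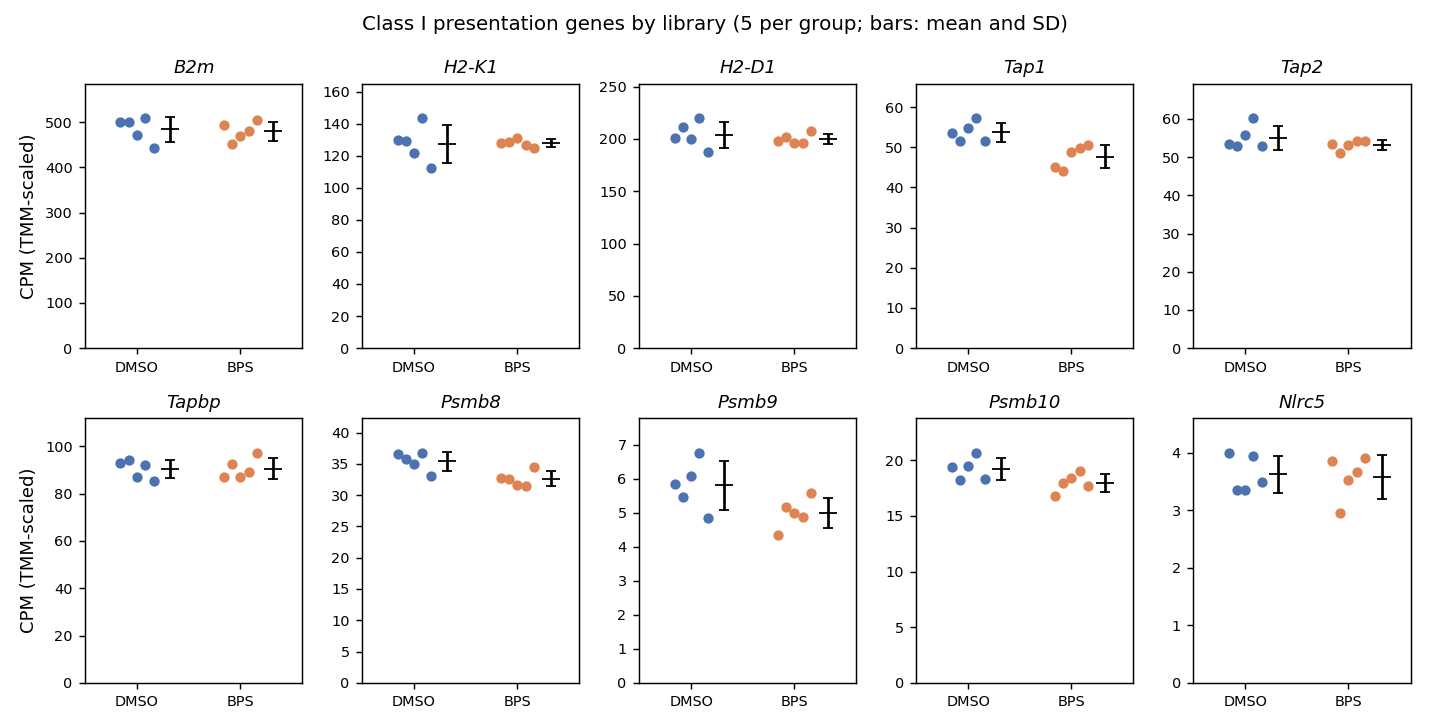
Level of each member in CPM (vertical axes, starting at 0) in 5 DMSO and 5 BPS libraries, 1 point per library, with the group mean and SD beside the points. Tap1 is the member whose groups do not overlap, with BPS libraries between 44.09 and 50.48 CPM and DMSO libraries between 51.46 and 57.25 CPM.

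B2m encodes the light chain shared by all classical class I molecules and had the highest level per transcript length of the members. It stood at 500.4, 499.9, 471, 509.2 and 443.1 CPM in the DMSO libraries and at 494.2, 452.2, 469.5, 479.7 and 504.2 CPM in the BPS libraries. The groups overlapped almost fully, with the lowest value in DMSO replicate 5. The log2 fold change was -0.014 (SE 0.04, 95% interval -0.101 to 0.072, adjusted p = 0.897 by edgeR).

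H2-K1, a classical heavy chain, had 129.9, 129.2, 121.8, 143.4 and 112 CPM in DMSO and 128.2, 128.6, 131.3, 126.5 and 124.9 CPM in BPS. The BPS values all fell inside the wider DMSO range, and the SD was 11.5 CPM in DMSO and 2.39 CPM in BPS. The log2 fold change of 0.007 had a 95% interval of -0.104 to 0.118 (adjusted p = 0.965 by edgeR). H2-D1, the other classical heavy chain, had 200.5, 211.3, 200.2, 219.9 and 187.4 CPM in DMSO and 198.3, 201.5, 196.3, 195.9 and 207.5 CPM in BPS. Here too the BPS libraries sat inside the DMSO range, and the log2 fold change was -0.029 (95% interval -0.109 to 0.051, adjusted p = 0.75 by edgeR).

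Class I heavy chains are a family of near copies whose reads the authors' counting had to divide, so single values carry that uncertainty. Of 30 genes with H2 class I heavy chain symbols, which leave out Mr1 and Cd1d1, 16 passed the filter alone. Summed over those 16, levels were 485.2 to 560.6 CPM in DMSO and 507.5 to 523.4 CPM in BPS. H2-D1 made up 38.9% of the sum, H2-K1 24.6%, H2-T23 11.7%, H2-T22 11.1% and H2-Q4 7.71%. The BPS range of this sum lay within the DMSO range. The counts of all 30 genes, added and fitted as 1 row, had a log2 fold change of -0.025 (SE 0.031, 95% interval -0.093 to 0.043, adjusted p = 0.737 by edgeR). The ratio of H2-K1 to H2-D1 within a library had a mean log2 of -0.68 in DMSO and -0.64 in BPS (difference 0.038, exact two-sided permutation test, p = 0.357, adjusted over 7 ratios 0.417).

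Tap1 and Tap2 pair to form the peptide transporter. Tap1 had 53.51, 51.46, 54.88, 57.25 and 51.58 CPM in DMSO and 45.01, 44.09, 48.89, 49.92 and 50.48 CPM in BPS. All BPS libraries lay under all DMSO libraries, although BPS replicate 5 and DMSO replicate 2 were less than 1 CPM apart. The means were 53.7 ± 2.43 and 47.7 ± 2.93 CPM (SD, n = 5 each), and the log2 fold change was -0.17 (SE 0.044, 95% interval -0.269 to -0.077, adjusted p = 0.0458 by edgeR). This call is near the threshold. It was lost when any 1 of the 5 DMSO libraries or of BPS replicates 1 to 4 was left out (adjusted p up to 0.0979 by edgeR), with upper-quartile scaling (0.0589), with RefSeq accessions matched by version as well (0.0756), with transcripts tested singly (0.387) and without DMSO replicates 4 and 5 together (0.141), while the estimate was below 0 in all 23 alternatives run, from -0.194 to -0.147. Over these alternatives the adjusted p ran from 0.00826 to 0.387.

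Tap2 had 53.49, 52.95, 55.77, 60.2 and 52.86 CPM in DMSO and 53.39, 50.98, 53.14, 54.17 and 54.14 CPM in BPS. The groups overlapped, and the log2 fold change was -0.05 (SE 0.036, 95% interval -0.13 to 0.029, adjusted p = 0.515 by edgeR). The ratio of Tap1 to Tap2 tests the unequal change directly. It was 1, 0.972, 0.984, 0.951 and 0.976 in the DMSO libraries and 0.843, 0.865, 0.92, 0.921 and 0.933 in the BPS libraries, with no overlap. The mean log2 ratio fell by 0.125 (exact two-sided permutation test, p = 0.00794, the smallest that 5 against 5 libraries allow, adjusted over 7 ratios 0.0278). The ratio does not depend on library scaling.

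Tapbp encodes tapasin, which holds the empty heavy chain at the transporter. Its libraries ranged from 85.45 to 94.26 CPM in DMSO and from 86.89 to 97.17 CPM in BPS, with a log2 fold change of 0.002 (95% interval -0.078 to 0.083, adjusted p = 0.984 by edgeR). The curated transcripts of Tapbp had log2 fold changes of 0.035 (SE 0.122) and -0.045 (SE 0.125) when tested singly, and neither was called.

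**Figure D2:**
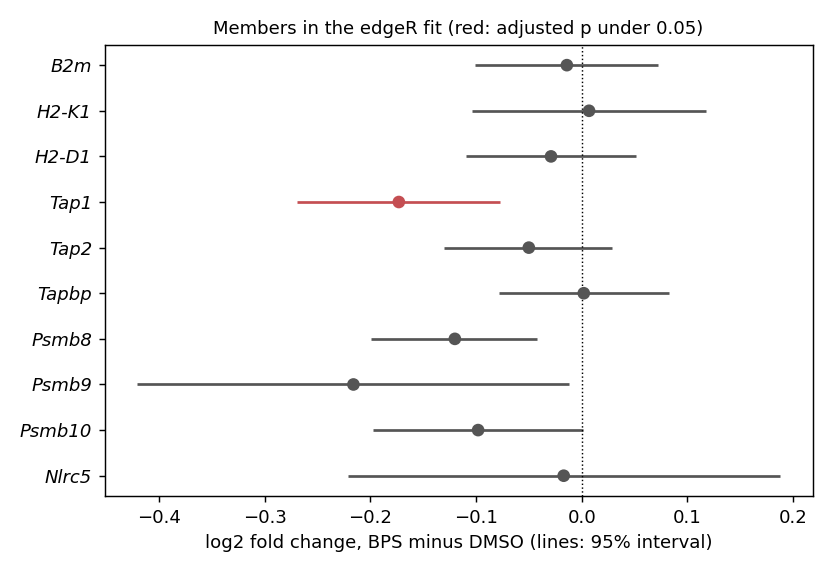
Log2 fold change of each member, BPS minus DMSO, on the horizontal axis, with its 95% interval as a line and genes on the vertical axis. The interval of Tap1 (red, adjusted p = 0.0458) lies wholly below 0, as do those of Psmb8 and Psmb9, which did not pass the adjustment.

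Psmb8 is the immunoproteasome subunit with chymotrypsin-like activity, which takes the place of Psmb5. It had 36.62, 35.73, 35.01, 36.75 and 32.98 CPM in DMSO and 32.8, 32.57, 31.69, 31.4 and 34.46 CPM in BPS. The groups overlapped through DMSO replicate 5 and BPS replicate 5 only. The log2 fold change was -0.12 (SE 0.036, 95% interval -0.199 to -0.042), with an unadjusted p of 0.00577 and an adjusted p of 0.0812 by edgeR. Without DMSO replicate 5 it passed (adjusted p = 0.0357 by edgeR, over all 23 alternatives 0.0357 to 0.468).

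Psmb9, which replaces Psmb6, was the least abundant subunit, with 173 to 257 counts per library. It had 5.849, 5.474, 6.084, 6.765 and 4.859 CPM in DMSO and 4.363, 5.17, 5.011, 4.876 and 5.591 CPM in BPS. Its log2 fold change of -0.22 was the largest of the members in size but had an SE of 0.094, a 95% interval of -0.421 to -0.012 and an adjusted p of 0.239 by edgeR. The reads were divided between a curated and a predicted transcript, which held 61.31% and 38.69% of the counts. Tested singly, the curated one had a log2 fold change of -0.424 (SE 0.199) and the predicted one 0.114 (SE 0.289). Neither was called. With accessions matched by version as well, only the curated transcript was left in the gene. The gene's estimate was then -0.43 (adjusted p = 0.257 by edgeR), which rests on the same counts and is no separate result.

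Psmb10, which replaces Psmb7, had 19.4, 18.21, 19.47, 20.66 and 18.29 CPM in DMSO and 16.75, 17.92, 18.39, 19 and 17.71 CPM in BPS. The groups overlapped, and the log2 fold change was -0.098 (SE 0.045, 95% interval -0.197 to 0.001, adjusted p = 0.271 by edgeR).

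The immunoproteasome was also compared with the constitutive subunits it displaces, within each library. Psmb5 averaged 79.2 ± 2.7 CPM without BPS and 83.9 ± 1.73 CPM with it (SD, n = 5 each), and its estimate of 0.084 on the log2 scale was not called (adjusted p = 0.09 by edgeR). Psmb6 and Psmb7 had log2 fold changes of 0.002 (adjusted p = 0.977) and 0.03 (adjusted p = 0.547) by edgeR. The CPM ratio of Psmb8 to Psmb5 was 0.488, 0.457, 0.435, 0.447 and 0.413 in DMSO and 0.399, 0.389, 0.366, 0.38 and 0.408 in BPS. No BPS library reached a DMSO library, and the mean log2 ratio fell by 0.204 (exact two-sided permutation test, p = 0.00794, adjusted over 7 ratios 0.0278). For Psmb9 to Psmb6 the difference was -0.21 (exact p = 0.0794, adjusted 0.139) and for Psmb10 to Psmb7 -0.13 (exact p = 0.0397, adjusted 0.0926), both with overlapping groups and neither past the threshold. With 1 library left out the exact test cannot go below p = 0.0159, which for 2 ratios at that floor adjusts to 0.0556, so these fits say nothing of the stability of either call. Both differences stayed below 0 in all 10 of them.

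**Figure D3:**
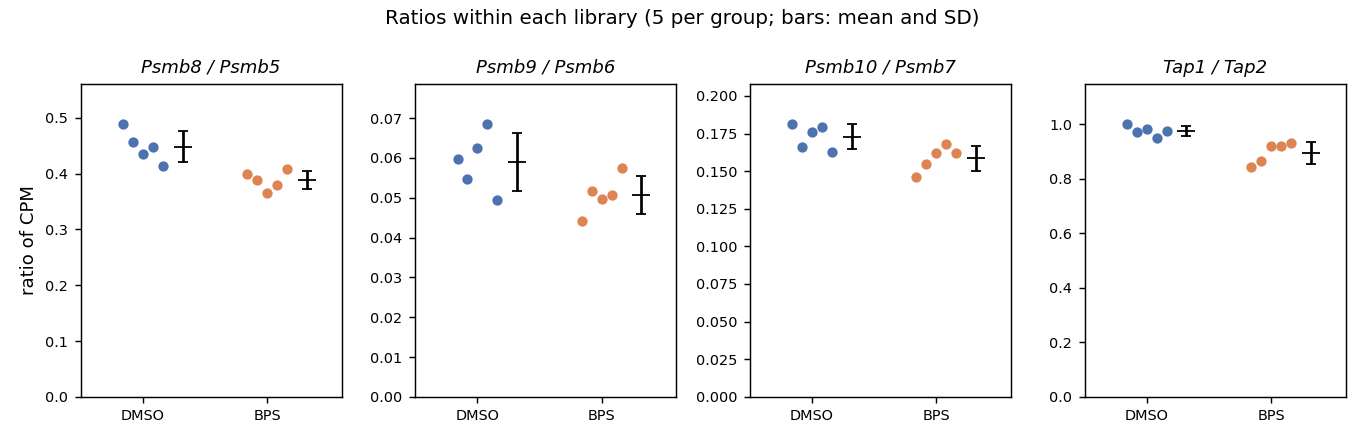
Ratio of CPM between 2 genes in the same library (vertical axes from 0) for 3 immunoproteasome subunits over the constitutive subunit each replaces and for Tap1 over Tap2, with group mean and SD. The groups do not overlap for Psmb8/Psmb5, at 0.413 to 0.488 in DMSO against 0.366 to 0.408 in BPS, nor for Tap1/Tap2.

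Genes that share the Tap1 and Psmb9 start region, or lie beside it, were compared in the same way. The Tap1 to Psmb9 ratio had a difference of 0.037 in mean log2 (exact two-sided permutation test, p = 0.603, adjusted 0.603), and the Psmb8 to Psmb9 ratio one of 0.091 (exact p = 0.302, adjusted 0.417). The SD of the log2 ratio in DMSO was 0.12 and 0.132, against 0.027 for Tap1 to Tap2. Both differences depended on how the Psmb9 transcripts were counted. With accessions matched by version as well they were 0.245 and 0.299 (adjusted exact p = 0.241 and 0.233), and neither was called.

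Nlrc5, the class I transactivator, had 103 to 154 counts per library, spread over 6 transcripts. It stood at 3.999, 3.351, 3.346, 3.948 and 3.491 CPM in DMSO and at 3.862, 2.958, 3.521, 3.664 and 3.902 CPM in BPS. Neither group was set apart, and the log2 fold change was -0.017 with a wide 95% interval of -0.221 to 0.188 (adjusted p = 0.951 by edgeR). Changes within those bounds are compatible with these libraries, so the fit does not show that Nlrc5 was unchanged.

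Divided by transcript length, the members differed widely in level. In DMSO, B2m stood at 564 ± 31.8 CPM per kilobase, H2-D1 at 97 ± 5.87, H2-K1 at 78.6 ± 7.13, Tapbp at 34.9 ± 1.49, Psmb8 at 21.8 ± 0.942, Tap1 at 18.2 ± 0.822, Tap2 at 16 ± 0.904, Psmb10 at 14.7 ± 0.768, Psmb9 at 4.29 ± 0.524 and Nlrc5 at 0.522 ± 0.0464 (SD, n = 5 each). Neighbours in this order did not overlap among the DMSO libraries, except Tap1 with Tap2 and Tap2 with Psmb10. The constitutive subunits were higher than their immunoproteasome counterparts on the same scale, with Psmb6 at 123 ± 1.21, Psmb7 at 95.7 ± 2.6 and Psmb5 at 88.1 ± 3.01 CPM per kilobase. Lengths were those of the GENCODE M21 transcript paired with each gene's most abundant curated RefSeq transcript, so the order is approximate for genes with several transcripts.

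Within a group most members tended to move together from library to library, Nlrc5 and Tapbp least. How many of all genes did the same was not counted. DMSO replicate 4 held the highest DMSO value of 8 of the 10 members, and DMSO replicate 5 the lowest of 7. Among BPS libraries, replicate 5 was highest for 7 members. With group means removed, each member correlated with the mean of the other 9 over the 10 libraries at Pearson's r of 0.436 (Nlrc5) to 0.781 (H2-D1), a description over values that share a library and its scaling. Without DMSO replicates 4 and 5 together, an alternative chosen after the data were seen, 0 of the 10 members were called, the Tap1 estimate was -0.16 (adjusted p = 0.141 by edgeR), and 267 in place of 712 genes were called in all.

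**Figure D4:**
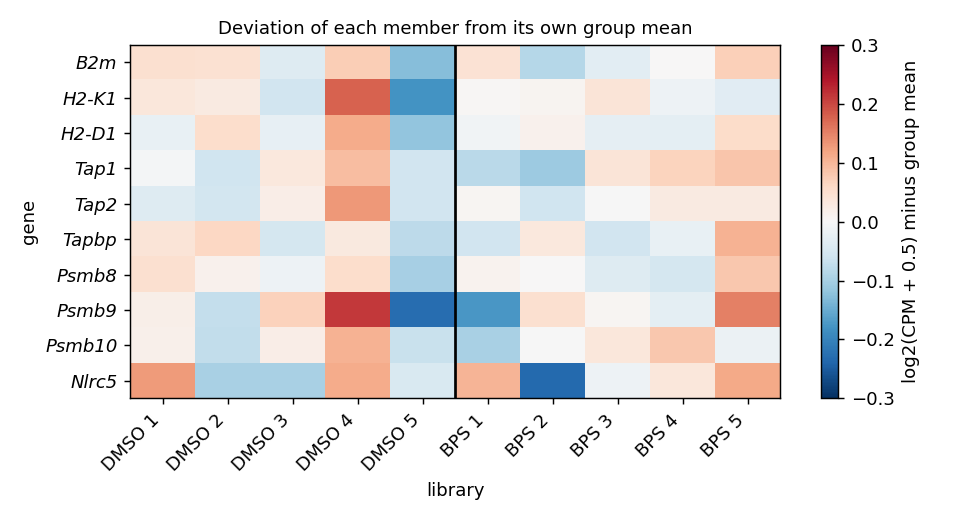
Heat map of the members (rows) by library (columns), coloured by log2(CPM + 0.5) minus the mean of the library's own group. The DMSO replicate 4 column is high and the DMSO replicate 5 column low for most members (highest of 8 and lowest of 7 of the 10).

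Outside the lists, the genes whose group-centred levels were most like the mean of the members over the 10 libraries were Ccpg1 (r = 0.984), Cdkn1c (0.94), Golga7 (0.936), Itm2b (0.928) and Speer3 (0.927). Of these, Ccpg1 was lower under BPS (log2 fold change -0.13, adjusted p = 0.0487 by edgeR), and the other 4 were not called. The 5 were picked as the highest over all genes tested and share libraries and scaling with the members.

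The rest of the presentation pathway gave few calls. Over all genes tested, 2750 of 14597 had an unadjusted p under 0.05, against which the counts of that kind for each list are to be read. Of 12 tested among 15 other class I heavy chains, 0 were called by edgeR's quasi-likelihood test, with 2 at an unadjusted p under 0.05. H2-T23, which encodes the nonclassical molecule Qa-1, averaged 62.8 ± 2.5 CPM without BPS and 59.1 ± 1.16 CPM with it (SD, n = 5 each; log2 fold change -0.088, adjusted p = 0.107 by edgeR). H2-Q4, singled out after its values were seen, came closest to a call, at 42.7 ± 3.08 and 37.3 ± 1.91 CPM (log2 fold change -0.19, adjusted p = 0.0516 by edgeR). Of 11 genes for peptide loading and trimming, all tested, 0 were called and 4 had an unadjusted p under 0.05. Erap1, the aminopeptidase that trims peptides in the endoplasmic reticulum, had a log2 fold change of -0.11 (adjusted p = 0.209), and Calr, the chaperone calreticulin, one of -0.035 (adjusted p = 0.257), both by edgeR.

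All 14 genes of the constitutive proteasome core were tested and 0 were called by edgeR, with 4 at an unadjusted p under 0.05. Their estimates were above 0 for 12 of 14, against 7329 of 14597 genes, with a median log2 fold change of 0.022. That median is small beside the choice of scaling, since library size alone shifted estimates by a median of -0.015. Among 7 proteasome activator and assembly genes 0 were called, with 1 at an unadjusted p under 0.05. Psme1 and Psme2, the interferon-inducible activator subunits, had log2 fold changes of -0.07 (adjusted p = 0.29) and -0.086 (adjusted p = 0.134) by edgeR. Of 13 factors of the class I promoter, 0 were called and 2 had an unadjusted p under 0.05, and Rfx5, the DNA-binding RFX subunit, had a log2 fold change of -0.077 (adjusted p = 0.514 by edgeR).

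Among the other pathway lists, the called genes were 4 genes of interferon signalling. Of its 14 genes, all tested, 4 were lower, against 1.82% of all genes, and 0 higher. The list had 9 genes at an unadjusted p under 0.05 and 13 with estimates below 0, against 49.8% of all genes, and its median log2 fold change was -0.135. Stat2, a transcription factor of the response to type I interferon, had 118.6, 117, 130.4, 128.7 and 111.4 CPM in DMSO and 91.76, 85.05, 89.35, 105.2 and 108 CPM in BPS. Its groups did not overlap (log2 fold change -0.34 with an SE of 0.067, and edgeR's adjusted p = 0.0154). Jak1, a kinase of the interferon receptors, fell from 248 ± 6.5 to 217 ± 14.2 CPM (SD, n = 5 each; log2 fold change -0.19, adjusted p = 0.016), and Jak2, which serves the interferon-gamma receptor, from 140 ± 2.8 to 132 ± 1.07 CPM (log2 fold change -0.087, adjusted p = 0.0139), both by edgeR. Irf1, a factor that binds class I promoters, fell from 44 ± 0.852 to 40.3 ± 1.6 CPM (log2 fold change -0.12, adjusted p = 0.0353 by edgeR). The call for Irf1 was lost on leaving out any 1 library other than DMSO replicate 3 or BPS replicate 1 (adjusted p 0.00976 to 0.0843 by edgeR), and the calls for Irf1 and Jak2 were lost with a replicate block (0.0632 and 0.053). Without DMSO replicates 4 and 5 together none of the 4 passed (adjusted p 0.054 to 0.17 by edgeR). None passed with transcripts tested singly either (Jak1 0.157, Stat2 0.158, Irf1 0.846, Jak2 1), and Irf1 was also lost with no filter (0.0518) and with accessions matched by version (0.0512). Jak2 and Stat2 were not among the genes tested with accessions matched by version. Whether the list as a whole differed from other genes was not tested. Whether these 4 genes differed more than the class I members was not tested.

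**Figure D5:**
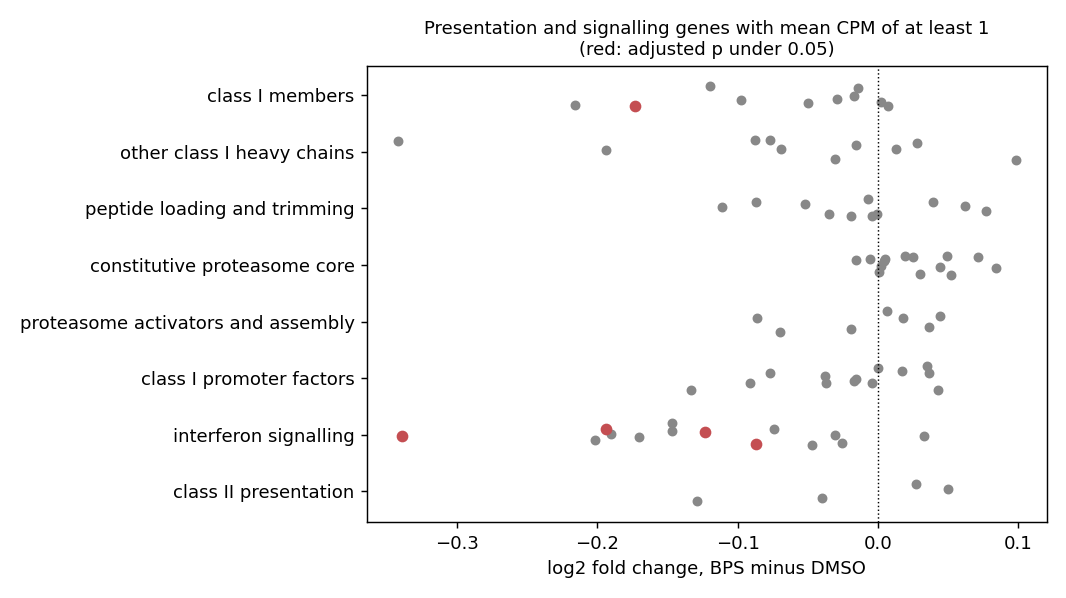
Log2 fold change, BPS minus DMSO (horizontal axis), of every tested gene with a mean of at least 1 CPM in the class I members and the 7 other pathway lists (vertical axis; marker lists are not drawn), 1 point per gene, red where the adjusted p was under 0.05. The red points are Tap1 among the class I members and 4 genes of interferon signalling, all to the left of 0.

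Markers of other cell types were summed per library. Of 10 macrophage markers 7 were tested and 0 called, with a summed level of 13 to 20.7 CPM in DMSO and 14.1 to 23.1 CPM in BPS, and Csf1r at 0 counts in all libraries. Lymphocyte and dendritic markers summed to 18.2 to 20.8 CPM in DMSO and 20.6 to 22.1 CPM in BPS, nearly all from Zbtb46, with Cd3e and Ncr1 at 0 counts. Endothelial markers summed to 18.6 to 24.7 CPM in DMSO and 18.2 to 24.1 CPM in BPS, with 0 of 8 called. Mural markers summed to 78.9 to 84.2 CPM in DMSO and 85.9 to 98.6 CPM in BPS, without overlap. By edgeR 2 of 7 were higher, Cspg4 (adjusted p = 0.0467) and Mcam (adjusted p = 0.0158), against 3.06% of all genes. Only these 2 had groups that did not overlap, against 6.9% of all genes. They gave most of the sum, with means of 39.1 and 20.1 CPM in DMSO and 43.5 and 25.9 CPM in BPS. Rgs5, Myh11, Notch3, Kcnj8 and Abcc9 also had estimates above 0 but were not called. Of 6 mesothelial markers 2 were tested, and Msln and Upk3b had 0 counts. Of the 2 tested, 1, Krt19, was higher (adjusted p = 0.0367 by edgeR), against 3.06% of all genes. The other tested one, Wt1, had an estimate in the opposite direction and was not called (log2 fold change -0.586, adjusted p = 0.155 by edgeR). Its means were 0.849 CPM in DMSO and 0.569 CPM in BPS. Adipocyte markers stayed at or under 5 counts per library. The part of these markers, Cd34 and Thy1 included, in the level of Tap1 was not tested.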

How the data were processed

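RNA was sequenced from 10 libraries, 5 of DMSO and 5 of BPS. The deposited table holds estimated counts per RefSeq transcript from kallisto 0.42.4, per the submitters' processing notes. The index, genome build and strand setting are not given in the sources used here. Of 107384 transcripts, 86722 were placed in genes through RefSeq (GRCm38.p6) by accession without version, holding 93.1% of the counts. The other 6.9% were left out. Counts were summed per gene and rounded. Genes passing filterByExpr (14597) were scaled by TMM and tested with edgeR 4.0.16 (R 4.3.3) by quasi-likelihood, with Benjamini-Hochberg adjustment over all of them and a threshold of 0.05. The code was tested on simulated data. A total of 7 ratios were tested by exact permutation over samples (scipy 1.17.1). Alternatives used other scalings, filters, tools (DESeq2 1.42.0, limma-voom 3.58.1), robust estimation, a replicate block, exact version matching, single transcripts, summed heavy chains and left-out libraries. Members, lists and the rule for named genes (all members, list genes that were called at a mean of 1 CPM or more, and 12 fixed genes) were chosen with earlier results of these data known. Ciita, a fixed gene, is given under other observations. Another of the fixed genes is not reported here. Same-numbered libraries correlated at -0.043 to 0.076 after removal of group means, so no block was used in the main fit. Whether they were paired by design is not given in the sources used here, and these correlations cannot show it.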

Additional observations from a re-analysis of the deposited data

Results flagged for a closer look

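Of 48 groups of 5 values, from 24 genes, 1 held a value far from the rest (Dixon's ratio 0.891, critical value 0.71), where chance alone would flag about 2.4. Erap1, the peptide-trimming aminopeptidase, had 38.36 CPM in DMSO replicate 1 and 33.51 to 34.04 CPM in the other DMSO libraries. Erap1 was not called in any of the 22 alternatives in which it was tested (adjusted p 0.141 to 0.869).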

How the results depend on the processing

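The 712 genes called in all became 374 with a replicate block, 267 without DMSO replicates 4 and 5, and 449 to 774 with 1 library left out. With accessions matched by version as well, 328 genes were called, from 72.12% of the counts in place of 93.1%. With transcripts not summed, 126 of 37588 transcripts tested were called, a number of transcripts and not of genes. The block changed no call among the members. Whether the numbers pair libraries is not known, and 2 of 5 matched best with their own number. The 1 member called became 0 with upper-quartile scaling, with matching by version, with transcripts not summed and without DMSO replicates 4 and 5, and 0 to 1 with 1 library left out. Without DMSO replicate 5 that 1 was Psmb8. Members called higher numbered 0 in all alternatives. Other pathway genes called lower, 4 in the report, numbered 0 to 6 over the alternatives. They numbered 0 for transcripts not summed, 1 for matching by version, 1 without DMSO replicates 4 and 5, and 2 with the block. Other pathway genes called higher, 0 in the report, numbered 0 to 1 over the alternatives. The 1 appeared with upper-quartile scaling, with DESeq2's Wald test and without BPS replicate 5. In the fit matched by version Jak2 and Stat2 were not among the genes tested, so they could not be called there. Estimates that changed sign were all near 0. With library size alone H2-K1 was at -0.008 and Tapbp and Psmb6 at -0.013. With matching by version Tapbp and Psmb6 were at -0.002. Psmb6 was at 0 with DESeq2 size factors, with no filter and with DESeq2's Wald test. The summed heavy chains gave -0.025 in place of H2-K1. Without DMSO replicates 4 and 5 Tapbp was at -0.015 and Nlrc5 at 0.007. With 1 library left out, B2m ranged from -0.045 to 0.006, H2-K1 from -0.035 to 0.052, Tapbp from -0.025 to 0.018, Nlrc5 from -0.049 to 0.044 and Psmb6 from -0.006 to 0.01. The differences of log2 ratios then ranged from -0.233 to -0.173 for Psmb8 to Psmb5, from -0.149 to -0.096 for Psmb10 to Psmb7 and from -0.139 to -0.103 for Tap1 to Tap2, with adjusted exact p of 0.037 to 0.0556, 0.037 to 0.185 and 0.037 to 0.0556, where 5 against 4 libraries set the floor. With matching by version the difference for Psmb9 to Psmb6 was -0.421 (adjusted exact p = 0.0972), in place of -0.212, and was not called. Higher genes were 62.8% of all calls and 45.9% with library size alone. Where a call was lost, the cause was not tested. Counts of 103 to 257 limit Nlrc5 and Psmb9.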

Other observations

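Class II presentation, which is largely a trait of immune cells, was measured at low levels in these cells. Of 11 class II genes 6 passed the filter, and 0 were called by edgeR's quasi-likelihood test, with 0 at an unadjusted p under 0.05. Ciita, the class II counterpart of Nlrc5, reached no more than 3 counts in any library, which leaves no room to detect a difference. H2-Aa and H2-Ob had 0 counts in every library, while H2-Ab1 had 154 to 205 counts (log2 fold change -0.13, adjusted p = 0.354 by edgeR) and H2-DMa 123 to 174, similar to Nlrc5 among the class I members. H2-DMb1, next to Psmb9 on the chromosome, averaged 5.07 ± 0.301 CPM without BPS and 5.16 ± 0.421 CPM with it (SD, n = 5 each), with a log2 fold change of 0.027 (adjusted p = 0.892 by edgeR).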
